A study of Homo sapiens with 24 samples.

Results

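Long noncoding RNA (lncRNA) genes of the 22 autosomes were described in U87-T cells, a glioblastoma line that carries a TERT transgene, with and without DAXX or ATRX and with and without etoposide. The members were chosen by their summed counts, with no use of any contrast. They were the genes that GENCODE calls lncRNA on chromosomes 1 to 22 and that summed to at least 50 counts over the 24 libraries of the QuantSeq gene table. Of the 57736 genes in the table, 12533 were autosomal lncRNA genes. Of these, 4122 had 0 counts, 9624 stayed under 50 counts, and 9 of the 12 named genes left out by the rule (among them NEAT1, MALAT1, GAS5 and PVT1) had enough counts to qualify. This left 2900 members, 23.1% of the autosomal lncRNA genes, beside 13310 autosomal protein-coding genes with the same sum of counts.

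The study asked how loss of DAXX or ATRX, the partners of a histone H3.3 chaperone, alters transcription and the response to DNA damage. The DAXX series held 4 groups of 3 libraries (DAXX_WT control, DAXX_WT etoposide, DAXX_KO control and DAXX_KO etoposide), and the ATRX series held the same 4 groups for ATRX, which gives 24 libraries. WT denotes U87-T cells with the empty Cas9 vector, KO denotes a CRISPR clone with ALT-like telomeres, and every group, the controls included, carries TERT. Each knockout is 1 clone, so clone and knockout cannot be told apart. Control cells are labelled untreated, the labels give neither dose nor time for etoposide, a topoisomerase II poison that breaks DNA, and the study calls its replicates biological in general without saying what was kept apart for these libraries, so p-values measure the spread between these libraries.

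Libraries held 6928950 to 13298557 counts. DAXX mRNA averaged 33.9 ± 1.24 CPM (counts scaled to TMM-normalised library totals, SD, n = 3) in DAXX_WT control and 5.82 ± 1.06 in DAXX_KO control, and ATRX mRNA averaged 192 ± 4.62 in ATRX_WT control and 80.5 ± 6.07 in ATRX_KO control. One label of the DAXX_KO libraries names ATRX in place of DAXX, and the titles were followed. Genes of glioma cells in culture were high in every library (VIM 1190 to 5970 CPM, CD44 345 to 1060, S100A6 3150 to 5870), whereas GFAP, an astrocyte marker, stayed at or under 0.501 CPM and OLIG2, of the oligodendrocyte lineage, at or under 1.7. Markers of leukocytes (PTPRC at most 1.75, AIF1 at most 0.267), endothelium (VWF at most 1.3) and epithelium (EPCAM at most 2.71) were near 0, and the neuronal gene SYT1 was not absent (10.1 to 36.2). In bulk RNA, fewer cells with a transcript and less of it per cell cannot be told apart.

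Long noncoding RNAs are transcribed by RNA polymerase II, are often spliced and polyadenylated, and encode no conserved protein. Some act in trans as RNA, such as NORAD, which binds Pumilio proteins. Others host snoRNAs or microRNAs in introns or exons, and still others start beside or across from a protein-coding gene and share its promoter. Most are kept at low level, and QuantSeq reads only the polyadenylated 3′ end of a transcript. Since 1 read is counted per transcript end, CPM values were compared between genes without division by length, and CPM here is scaled by trimmed mean of M-values (TMM) factors.

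By name, 595 members were antisense (-AS), 408 were LINC genes, 277 were divergent transcripts (-DT), 33 hosted microRNAs, 25 hosted snoRNAs, 31 were intronic or overlapping transcripts, 182 had another symbol and 1349 had an Ensembl ID alone. By position, 1249 overlapped a protein-coding gene on the other strand, 438 overlapped one on the same strand, 236 began within 1000 bases of a protein-coding start on the other strand, and 977 were intergenic. The strand setting of the counting is not stated, so for the overlapping members reads of the member and of its neighbour cannot be told apart. The summed counts that chose the members ran from 50 to 525826 with a median of 238, and 561 members reached 1000 counts. At the edge, LINC02724, ENSG00000232835 and LINC02751 stood at 50 counts inside the rule, and ENSG00000239739, ENSG00000260253 and ENSG00000263603 at 49 outside it.

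The start regions of 5 members on which the results turn are shown because these genes were near 0 in one state and counted in another, or carried the most reads. Each is 300 bases, 250 before and 50 from the annotated start, read 5′ to 3′ on the gene's strand at GENCODE starts from the GRCh37 genome, and capitals mark CCAAT or TTTGAA or TATAAA on either strand. The windows are UNC5B-AS1 at chr10:72978002-72978301 on the minus strand, CCDST at chr1:152178084-152178383 on the plus strand, TMPO-AS1 at chr12:98910151-98910450 on the minus strand, LINC01082 at chr16:86229310-86229609 on the plus strand and SNHG25 at chr17:62223047-62223346 on the plus strand.
UNC5B-AS1: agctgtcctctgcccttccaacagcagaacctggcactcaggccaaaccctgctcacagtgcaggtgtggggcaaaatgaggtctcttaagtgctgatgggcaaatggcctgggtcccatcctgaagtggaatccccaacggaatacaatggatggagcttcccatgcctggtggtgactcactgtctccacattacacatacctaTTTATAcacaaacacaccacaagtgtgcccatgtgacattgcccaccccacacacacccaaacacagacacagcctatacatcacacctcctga
CCDST: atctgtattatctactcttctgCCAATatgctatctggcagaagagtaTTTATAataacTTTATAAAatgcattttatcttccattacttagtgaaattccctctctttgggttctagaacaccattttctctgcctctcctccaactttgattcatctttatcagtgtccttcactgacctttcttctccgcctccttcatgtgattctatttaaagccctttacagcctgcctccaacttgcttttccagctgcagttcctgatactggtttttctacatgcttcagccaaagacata
TMPO-AS1: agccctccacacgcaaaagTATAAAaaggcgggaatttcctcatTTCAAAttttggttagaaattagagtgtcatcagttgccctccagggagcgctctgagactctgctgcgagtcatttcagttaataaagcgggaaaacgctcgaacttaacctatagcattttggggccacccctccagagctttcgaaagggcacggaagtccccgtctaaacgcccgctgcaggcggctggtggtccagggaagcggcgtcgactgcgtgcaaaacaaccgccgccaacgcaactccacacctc
LINC01082: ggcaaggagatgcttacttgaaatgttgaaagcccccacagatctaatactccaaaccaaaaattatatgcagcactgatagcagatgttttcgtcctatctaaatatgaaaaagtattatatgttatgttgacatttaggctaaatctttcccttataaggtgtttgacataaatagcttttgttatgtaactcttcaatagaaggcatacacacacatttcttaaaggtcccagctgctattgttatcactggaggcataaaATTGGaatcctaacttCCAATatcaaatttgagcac
SNHG25: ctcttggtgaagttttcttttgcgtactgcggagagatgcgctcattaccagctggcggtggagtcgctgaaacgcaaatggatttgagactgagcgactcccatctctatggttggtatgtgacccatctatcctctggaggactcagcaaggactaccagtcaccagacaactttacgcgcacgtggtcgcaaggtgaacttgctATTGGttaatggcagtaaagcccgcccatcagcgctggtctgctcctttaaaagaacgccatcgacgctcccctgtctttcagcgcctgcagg

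Because DNA breaks are known to activate p53, each start region was also searched for a p53 element, taken as a pair of p53 decamers of 10 bases each, separated by 0 to 3 bases, with at most 2 mismatches and none in the C and G of either core. Such an element was found in 27 of 2900 member windows (0.931%) and in 128 of 15519 windows of members and tested autosomal protein-coding genes together (0.825%). Among members that fell with etoposide in WT cells of both series, 1 of 98 held one (1.02%). Protein-coding genes held one in 34 of 2897 that rose (1.17%) and in 20 of 3669 that fell (0.545%). No test compared such shares. Of the 433 members that rose with etoposide in WT cells of both series, 6 held one (1.39%), and these are printed as the letters that matched, in capitals throughout. They lie at chr1:152140422-152140441 (FLG-AS1, plus strand, 1 mismatch), chr2:105954193-105954214 (C2orf49-DT, minus strand, 2 mismatches), chr3:153697967-153697989 (LINC02006, minus strand, 2 mismatches), chr12:2113816-2113835 (ENSG00000203593, plus strand, 2 mismatches), chr17:1620611-1620631 (MIR22HG, minus strand, 2 mismatches) and chr21:45232613-45232632 (AATBC, minus strand, 2 mismatches).
FLG-AS1: GGACTAGCCCAGACAAGTGC
C2orf49-DT: AGGCAAGCTCGGGTGCAAGCGC
LINC02006: AAGCTGGGCTTGAGAACTTGCCC
ENSG00000203593: CGACAAGCCCAGGCCTGCCC
MIR22HG: GGGCAGGTCTCCGGCTTGCCC
AATBC: GGGCAGGCCCAGCCATGCCT
A match describes letters in a window and is not a binding site. Member windows held TTTGAA in 17.1% (12.5% of all windows), CCAAT in 34.0% (35.7%) and TATAAA in 13.6% (8.67%), each on either strand, and their mean GC content was 54.4% against 60.2% over all windows.

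The most abundant members were snoRNA hosts. SNHG25 (SNORD104 host, chr17:62223297-62223836, plus strand) stood at 1927, 2143 and 1764 CPM in the 3 DAXX_WT control libraries and at 4731, 4641 and 4796 CPM in the 3 DAXX_WT etoposide libraries. In DAXX_KO it reached 1326, 1345 and 1410.5 CPM in control and 1998, 1614 and 2022 CPM in etoposide. Treated DAXX_KO overlapped untreated DAXX_WT, and no other groups of the DAXX series overlapped. In the ATRX series the library values were 2141, 2234 and 2116 CPM in WT control, 3756, 3427 and 3879 in WT etoposide, 902, 922 and 1045 in KO control and 1585, 1073 and 1221 in KO etoposide. SNHG25 rose with etoposide in DAXX_WT (log2 change 1.28 ± 0.08, edgeR adjusted p = 3.19e-11) and in ATRX_WT (log2 change 0.77 ± 0.11, edgeR adjusted p = 1.04e-05), and it was lower in ATRX_KO than ATRX_WT in control (log2 change −1.18 ± 0.11, edgeR adjusted p = 2.12e-07). It was also lower in DAXX_KO control (log2 change −0.52 ± 0.08, edgeR adjusted p = 1.33e-05), where the 30 protein-coding genes on either side had a median log2 change of −0.79, so relative to its chromosomal neighbours it was not lower (0.27 after centring on them).

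SNHG5, SNHG29 and ZFAS1, which also host box C/D snoRNAs, were among the next in level. Their means in DAXX_WT went from 684 ± 18.8 to 1651 ± 35.5 CPM for SNHG5, from 558 ± 16.4 to 1135 ± 13.1 for SNHG29 and from 242 ± 23 to 727 ± 35.9 for ZFAS1 (SD, n = 3), with no overlap of control and etoposide libraries. SNHG1, which starts beside SLC3A2 and hosts several snoRNAs, rose further. Its 3 libraries read 145, 148 and 146 CPM in DAXX_WT control, 650.0, 662 and 612 in DAXX_WT etoposide, 167, 159 and 151 in ATRX_WT control and 874, 864 and 906 in ATRX_WT etoposide. That is a log2 change of 2.14 ± 0.06 in DAXX_WT (SE, edgeR adjusted p = 4.74e-16) and of 2.47 ± 0.09 in ATRX_WT (edgeR adjusted p = 9.11e-13). SNHG16 moved the other way. It fell from 642, 644 and 626 to 334, 331 and 331 CPM in DAXX_WT, and it was already at 208, 206 and 204 CPM in untreated DAXX_KO, below every WT library. NORAD, a cytoplasmic RNA known to respond to DNA damage, was at 158, 160.1 and 144 CPM in DAXX_WT control and 313, 314 and 319 CPM in DAXX_KO control, and etoposide raised it in all 4 lines (log2 changes 0.71 and 0.68 in WT, 0.30 in DAXX_KO and 0.87 in ATRX_KO, edgeR adjusted p at most 0.000566). SNHG6 averaged between 175 CPM in ATRX_WT control and 342 CPM in ATRX_KO etoposide.

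Detection was widest after etoposide. A member counted as detected in a group where each of its 3 libraries held more than 3 counts, the count taken as the limit of a library (0.216 to 0.404 CPM). Detected members numbered 1522 in DAXX_WT control, 1705 in DAXX_WT etoposide, 1538 in DAXX_KO control and 1723 in DAXX_KO etoposide (52.5, 58.8, 53 and 59.4% of members). In the more deeply sequenced ATRX series they numbered 1748, 1920, 1760 and 2113 (60.3, 66.2, 60.7 and 72.9%). At the depth of the smallest library, the expected numbers were 1326.0, 1571.1, 1494.5 and 1555.1 in the DAXX series and 1343.2, 1636.4, 1396.3 and 1694.8 in the ATRX series, so the order control below etoposide held in all 4 lines. At this common depth the gain with etoposide in DAXX_KO (1494.5 to 1555.1) was smaller than in the other 3 lines, a difference that was not tested. These numbers limit counting error only, and the sum of counts that chose the members draws on all groups.

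**Figure D1:**
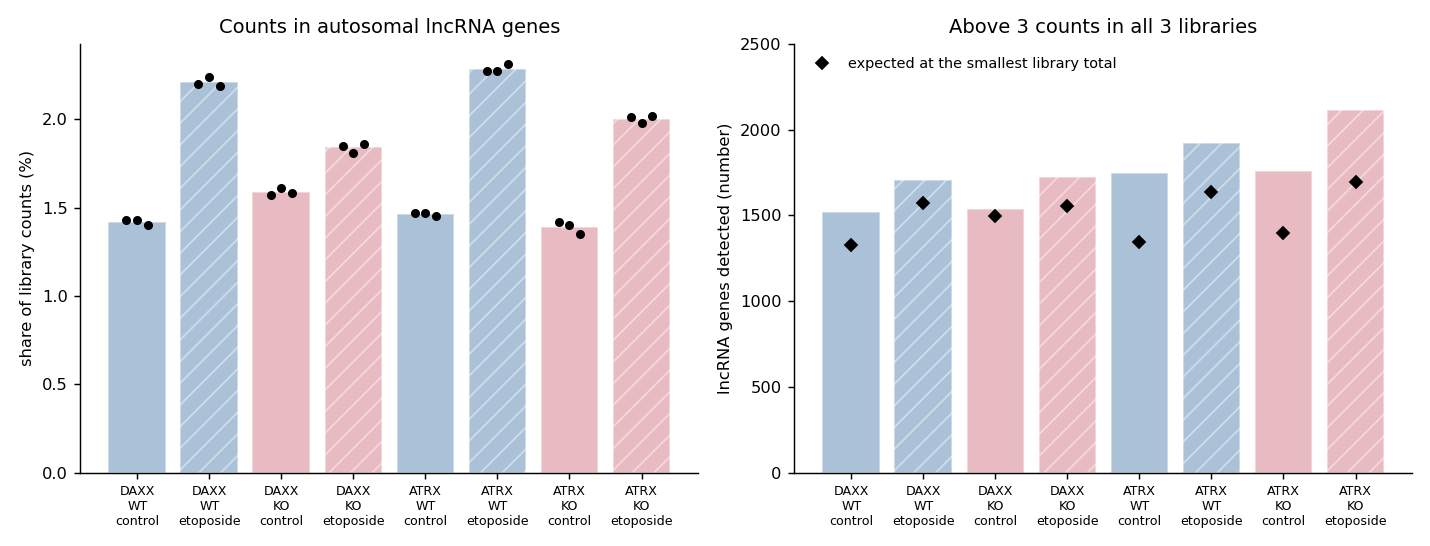
Share of library counts held by the members in percent (bars, group mean; points, libraries) and number of members detected (bars) with the number expected at the smallest library total (diamonds), for the 8 groups. The share of counts was 1.42% in DAXX_WT control and 2.21% in DAXX_WT etoposide, and etoposide groups lay above their controls in all 4 lines.

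All 8 groups detected 1053 members, 292 were detected in no group although their sum passed the rule, and 1555 were detected in some groups. The median member stood at 0.739 CPM in DAXX_WT control and 1.02 in DAXX_WT etoposide, and at 0.761 and 1.11 in the ATRX_WT groups. Members of at least 10 CPM numbered 222 and 271 in DAXX_WT, 249 and 276 in DAXX_KO, 227 and 293 in ATRX_WT and 244 and 282 in ATRX_KO (control and etoposide). Only 16 to 27 members reached 100 CPM in any group.

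Switches from not detected to detected were more frequent with etoposide than their reverse in WT cells. In DAXX_WT, 117 members (4.03%) were above 3 counts in every etoposide library and at or under 3 in every control library, against 2.35% of all genes with the same sum, and 40 (1.38%) did the reverse, against 0.553%. In ATRX_WT these were 126 (4.34%, all genes 2.65%) and 42 (1.45%, all genes 0.489%). In the knockouts 98 members of DAXX_KO (3.38%, all genes 1.96%) and 151 of ATRX_KO (5.21%, all genes 2.90%) were detected with etoposide alone, and the latter was the highest of the 4 lines. Depth differed between the lines, and switches were not counted at a common depth. There, expected detected members rose from 1396.3 to 1694.8 in ATRX_KO and from 1343.2 to 1636.4 in ATRX_WT. Between untreated knockout and WT cells, 63 members (2.17%) were detected in DAXX_KO alone, against 1.26% of all genes, and 55 (1.9%) in DAXX_WT alone, against 1.45%. For ATRX they were 48 (1.66%, all genes 1.06%) and 55 (1.9%, all genes 1.17%). Since members are low genes near the limit, these shares describe the members and were not compared by a test.

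The etoposide switch was shared by 43 members of both series and the reverse by 2 (ENSG00000230393 and ENSG00000272478). Shared switches were not counted over all genes. Within each series all genes also switched on more often than off (2.35 against 0.553% in DAXX_WT, 2.65 against 0.489% in ATRX_WT). Where the lower group held 0 counts, the fold is a lower bound against 3 counts per library, and otherwise it is the ratio of summed counts over the scaled library totals with an exact 95% interval for counting error only. By this measure UNC5B-AS1 was at least 105-fold higher in treated DAXX_WT and 1580.0-fold (interval 284 to 62560.0) higher in treated ATRX_WT. FLG-AS1, antisense across FLG, the filaggrin gene of skin, was 42.7-fold (interval 11.4 to 359) and 34.3-fold (interval 16.4 to 86.39) higher in the DAXX and the ATRX series. CCDST, 43.3-fold (interval 11.6 to 364) and at least 16.8-fold higher, lies at chr1:152178334-152179533 inside the span of FLG-AS1 at chr1:152140601-152417932 on the same strand, so their reads may be shared. SIGLEC5, at least 8.21-fold and at least 34.6-fold higher, overlaps SIGLEC14 on the same strand and is annotated here as lncRNA, so its reads may belong to that near copy. Other members of this switch were LINC02086 (at least 3.9-fold and at least 26.5-fold) and AATBC (at least 7.02-fold and 13.8-fold (interval 5.57 to 43.92)).

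Knockout switches in untreated cells were shared by 8 members detected in both KO lines alone (FAM87B, LINC00488, FEZF1-AS1, LINC00520, LINC01050, ENSG00000253524, ENSG00000260052 and ENSG00000271344) and by 13 detected in both WT lines alone. These shared switches were not counted over all genes either. LINC01050 was 246-fold (interval 67.6 to 2034) higher in DAXX_KO and 14.2-fold (interval 3.57 to 123) higher in ATRX_KO. FEZF1-AS1, across from a forebrain zinc finger gene, was 25.3-fold (interval 8.3 to 126) and at least 5.26-fold higher. Among the 13 was LINP1, known as a scaffold in nonhomologous end joining of broken DNA, which was 39.7-fold (interval 6.77 to 1602) lower in DAXX_KO and 42.5-fold (interval 7.23 to 1718) lower in ATRX_KO. LINP1 read 1.68, 1.61 and 1.68 CPM in DAXX_WT control, 0.125, 0 and 0 in DAXX_KO control, 1.17, 1.19 and 1.18 in ATRX_WT control and 0, 0 and 0.0794 in ATRX_KO control, with no overlap between WT and KO.

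Members held 1.42% of counts in DAXX_WT control, 2.21% in DAXX_WT etoposide, 1.84% in DAXX_KO etoposide, 1.46% in ATRX_WT control, 2.28% in ATRX_WT etoposide, 1.39% in ATRX_KO control and 2.0% in ATRX_KO etoposide (SD over 3 libraries at most 0.0361). For DAXX_KO control the share was 1.59%, above DAXX_WT control, but with TMM-scaled totals it was 1.46% against 1.49%, so the order of these controls turned with the scaling. SNHG25 alone held 0.186% in DAXX_WT control and 0.452% in DAXX_WT etoposide. Without the 10 most abundant members the shares were 0.953 and 1.22% in DAXX_WT, 1.15 and 1.23% in DAXX_KO, 0.989 and 1.32% in ATRX_WT and 1.04 and 1.36% in ATRX_KO, so those 10 genes held much of the rise with etoposide. The rise in percentage points was 0.79 with and 0.264 without them in DAXX_WT, 0.253 and 0.08 in DAXX_KO, 0.82 and 0.334 in ATRX_WT and 0.613 and 0.317 in ATRX_KO.

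Etoposide in WT cells raised many more members than it lowered. Of 1627 members tested in the DAXX series, 546 were higher and 143 lower in DAXX_WT (33.6 and 8.79%), against 29.6% higher and 30.6% lower of all genes tested. In ATRX_WT, 708 of 1968 tested members were higher and 191 lower (36 and 9.71%), against 31.7 and 29.8% of all genes. The median log2 change of tested members was 0.38 in DAXX_WT and 0.45 in ATRX_WT, beside 0.02 and 0.07 over all genes tested. Of the 1561 members tested in both series, 433 were higher in both (81.2% of those higher in DAXX_WT and 72.7% of those higher in ATRX_WT), 98 were lower in both and 2 were opposite. Of 12619 autosomal protein-coding genes tested in any fit, 2897 were higher in both and 3669 lower in both. The overlap between series was not counted over all genes, so its size is not read as a trait of the members. A member could enter the test through the group in which it was high, so these counts describe the tested members (1273 and 932 members were not tested) and not all 2900.

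**Figure D2:**
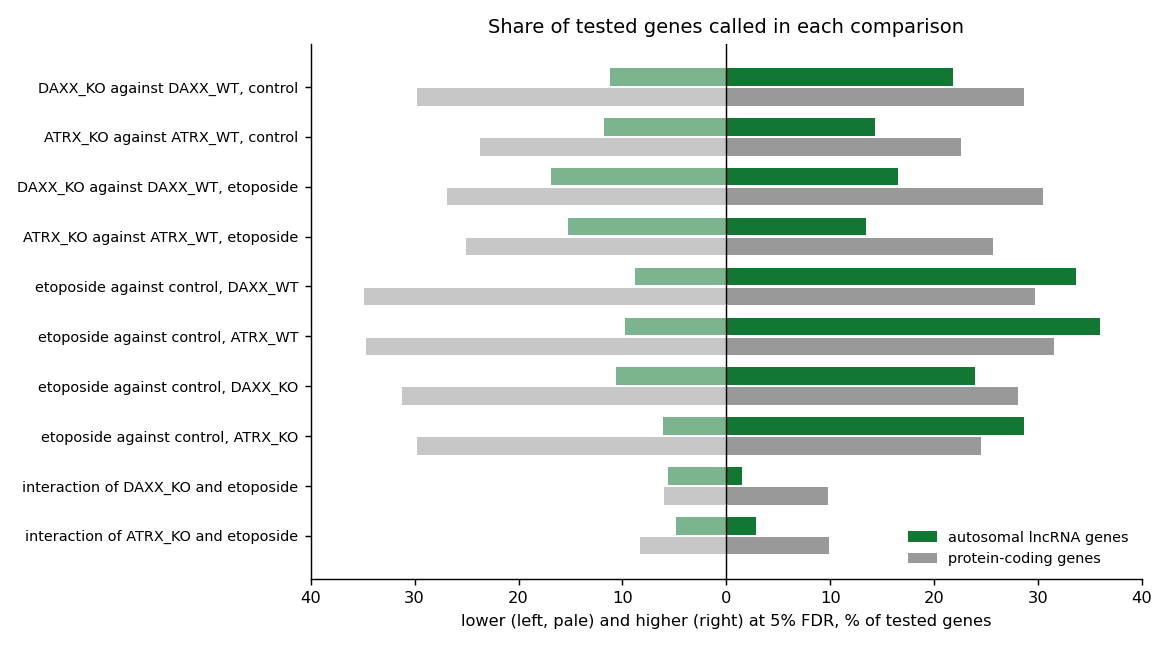
Percent of tested genes called higher or lower at a false discovery rate of 5% in 10 comparisons, members in green and protein-coding genes of all chromosomes in grey. Members were higher in 33.6% and lower in 8.79% with etoposide in DAXX_WT, against 29.7 and 34.9% of protein-coding genes.

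UNC5B-AS1 (chr10:72976977-72978051, minus strand), antisense to the netrin receptor gene UNC5B, a known p53 target, went from at or near 0 counts to above 10 CPM with etoposide. It was 0 CPM in all 3 DAXX_WT control libraries and 35.8, 35.4 and 34.2 CPM in etoposide, and in ATRX_WT it was 0.0777, 0 and 0 CPM in control and 45.5, 40.3 and 44.3 CPM in etoposide (edgeR adjusted p = 6.06e-15 and 5.02e-14). The knockouts rose too, to 25.5, 23 and 23.8 CPM in DAXX_KO and 16.9, 13.4 and 14.7 CPM in ATRX_KO, from at most 2 counts in control. Every treated knockout library lay below every treated WT library of its series (log2 difference −0.54 ± 0.10 for DAXX_KO, edgeR adjusted p = 0.000293, and −1.54 ± 0.13 for ATRX_KO, edgeR adjusted p = 5.73e-08). UNC5B itself rose in WT by log2 2.97 (edgeR adjusted p = 1.12e-13) and 2.68 (edgeR adjusted p = 8.88e-12). The window printed above held no p53 element by the rule used.

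L3MBTL2-AS1 (chr22:41603596-41624504, minus strand), across from the polycomb-family gene L3MBTL2, read 0.198, 0.345 and 0.36 CPM in DAXX_WT control and 10.6, 13.1 and 10.9 in etoposide, and 0.0777, 0.0848 and 0.338 and 9.79, 6.39 and 6.91 in ATRX_WT. Control and etoposide libraries did not overlap in either series (39.3-fold higher (interval 19.7 to 91.9) in DAXX_WT, and log2 change 5.46 ± 0.46, edgeR adjusted p = 6.78e-08 in ATRX_WT). L3MBTL2 changed the other way, by log2 −0.49 (edgeR adjusted p = 0.00171) in DAXX_WT and −0.34 (edgeR adjusted p = 0.0273) in ATRX_WT. CCDST (chr1:152178334-152179533, plus strand) read 0.099, 0.115 and 0 CPM in DAXX_WT control and 3.76, 2.73 and 3.1 in etoposide, and in ATRX_WT it went from 0 in all control libraries to 3.23, 4.1 and 5.11. SIGLEC5 was 0 in all 12 control libraries of both series and 3.38, 2.02 and 2.83 CPM in DAXX_WT etoposide and 9.69, 7.82 and 8.12 CPM in ATRX_WT etoposide. TCERG1L-AS1 (chr10:132893481-132894040, plus strand) averaged 2.02 ± 0.472 CPM in DAXX_WT etoposide and 3.24 ± 0.722 in ATRX_WT etoposide (SD, n = 3), 54.7-fold higher (interval 9.35 to 2203) and 59.4-fold higher (interval 16 to 498) than in control.

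Other members fell with etoposide. TMPO-AS1 (chr12:98906751-98910200, minus strand), divergent from the lamina gene TMPO, fell from 3.56, 3.56 and 5.4 CPM to 0.376, 0.356 and 0 in DAXX_WT and from 4.89, 5.26 and 6.09 to 0.554, 0.477 and 0.301 in ATRX_WT (log2 change −3.57 ± 0.30, edgeR adjusted p = 2.34e-08). In DAXX_WT etoposide it was at or under 3 counts per library, 16.4-fold lower (interval 7.3 to 45.62). TMPO fell with it, by log2 −2.35 (edgeR adjusted p = 1.36e-13) and −2.26 (edgeR adjusted p = 1.06e-12). DLEU2 (chr13:50530806-50699856, minus strand), host of miR-15a and miR-16-1, went from 76.5, 62.9 and 75 to 13.9, 11.4 and 11.9 CPM in DAXX_WT and from 52.6, 57.3 and 64.1 to 6.55, 7.72 and 6.01 in ATRX_WT. MIR17HG, host of the miR-17-92 cluster and a known MYC target, averaged 4.29 ± 0.337 CPM and 0.938 ± 0.403 CPM in DAXX_WT control and etoposide (log2 change −2.19 ± 0.32, edgeR adjusted p = 8.57e-06). SWINGN, described as a SWI/SNF-interacting RNA from the GAS6 locus, averaged 10.2 ± 0.975 and 2.33 ± 0.424 CPM (log2 change −2.10 ± 0.24, edgeR adjusted p = 2.78e-07). LINC01224 averaged 3.27 ± 0.46 and 0.378 ± 0.216 CPM (log2 change −3.06 ± 0.50, edgeR adjusted p = 2.79e-05).

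**Figure D3:**
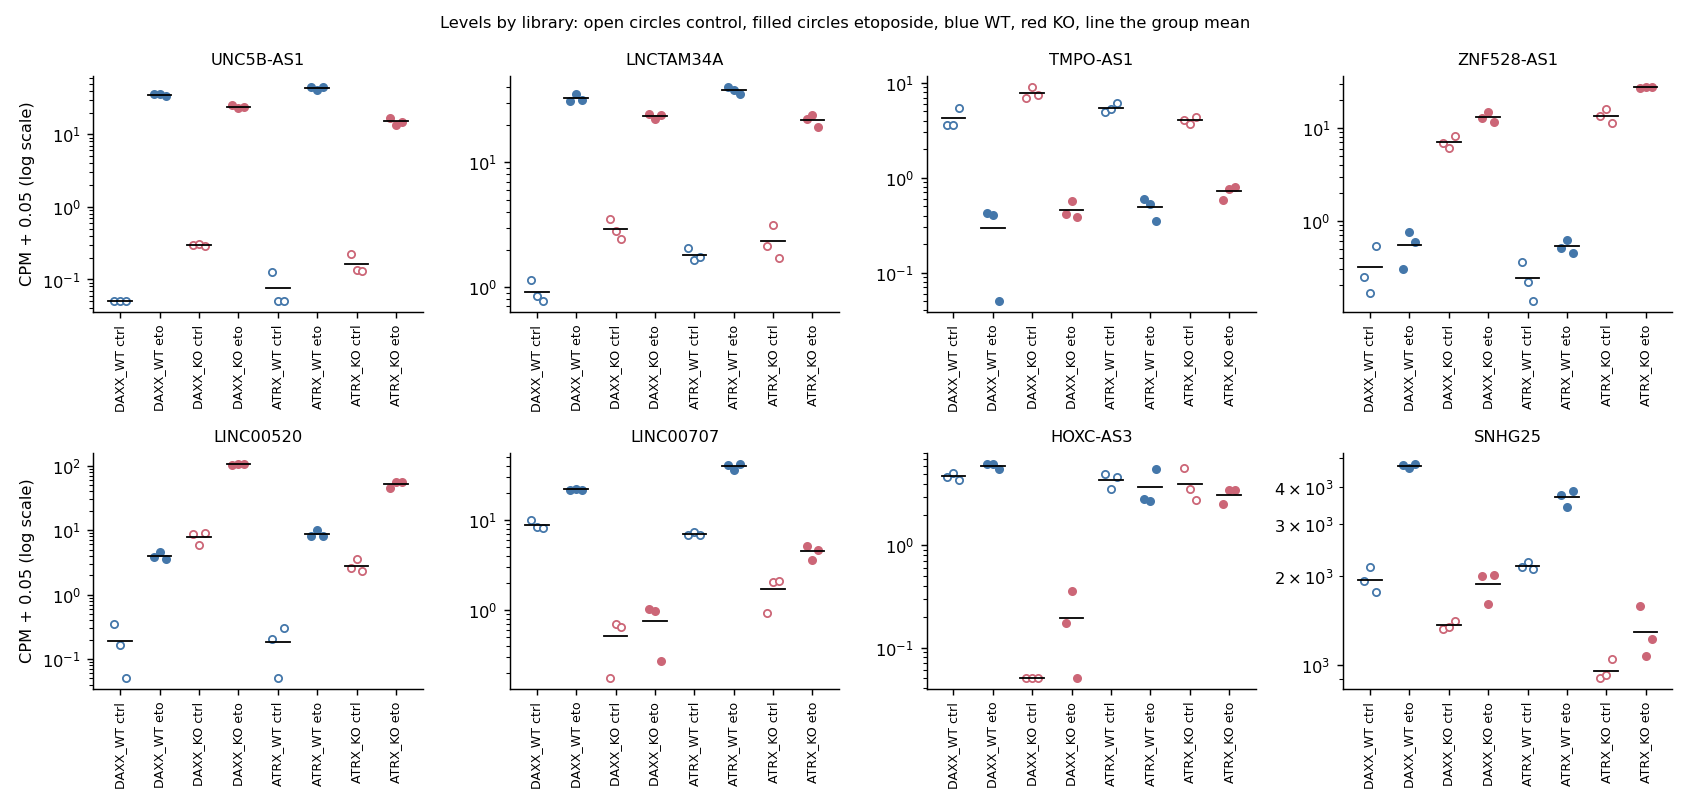
CPM plus 0.05 on a log axis for UNC5B-AS1, LNCTAM34A, TMPO-AS1, ZNF528-AS1, LINC00520, LINC00707, HOXC-AS3 and SNHG25 in the 24 libraries (open, control; filled, etoposide; blue, WT; red, KO; line, group mean). A point at 0.05 stands for 0 counts, as in the DAXX_WT control libraries of UNC5B-AS1, whose etoposide libraries lie at 35.8, 35.4 and 34.2 CPM.

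The response in the knockout lines had the same lean. In DAXX_KO, 389 tested members rose and 173 fell (23.9 and 10.6%), against 26.8 and 27.8% of all genes, and in ATRX_KO 562 rose and 119 fell (28.6 and 6.05%), against 24.3 and 25.2%. Of called members 69.2% were higher in DAXX_KO, but 60.1% when libraries were scaled by their totals alone, which moves the median of all genes in this comparison by −0.11 log2. Protein-coding genes of low level leaned the same way. Of those called under 1 CPM, from 1 to 5 CPM and from 5 CPM, 82.9, 64.3 and 45.2% rose in DAXX_KO. Called members gave 78.1, 69.3 and 66.8%. In ATRX_KO protein-coding genes gave 95.0, 75.7 and 39.3% and members 92.8, 82.0 and 77.5%. In both knockouts 287 members rose, 69 fell and 8 moved in opposite directions, an overlap that was not counted over all genes. By the naming rule the 5 strongest shared rises were the same 5 genes as in WT, with SIGLEC5 at 1.09, 1.76 and 1.45 CPM in DAXX_KO and 4, 3.82 and 4.21 CPM in ATRX_KO etoposide. TMEM18-DT, which starts beside TMEM18, fell from 8.23, 8.16 and 5.41 to 1.34, 1.45 and 2.35 CPM in DAXX_KO and from 6.86, 5.77 and 6.98 to 1.24, 1.08 and 1.43 CPM in ATRX_KO, and was higher in both untreated knockouts than in WT (log2 change 1.98 ± 0.31, edgeR adjusted p = 2.3e-05 for DAXX_KO). LINC00461, a brain-expressed RNA near MEF2C, averaged 16.5 ± 2.76 and 5.25 ± 0.651 CPM in DAXX_KO control and etoposide and 12.4 ± 0.161 and 4.94 ± 0.823 CPM in ATRX_KO.

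**Figure D4:**
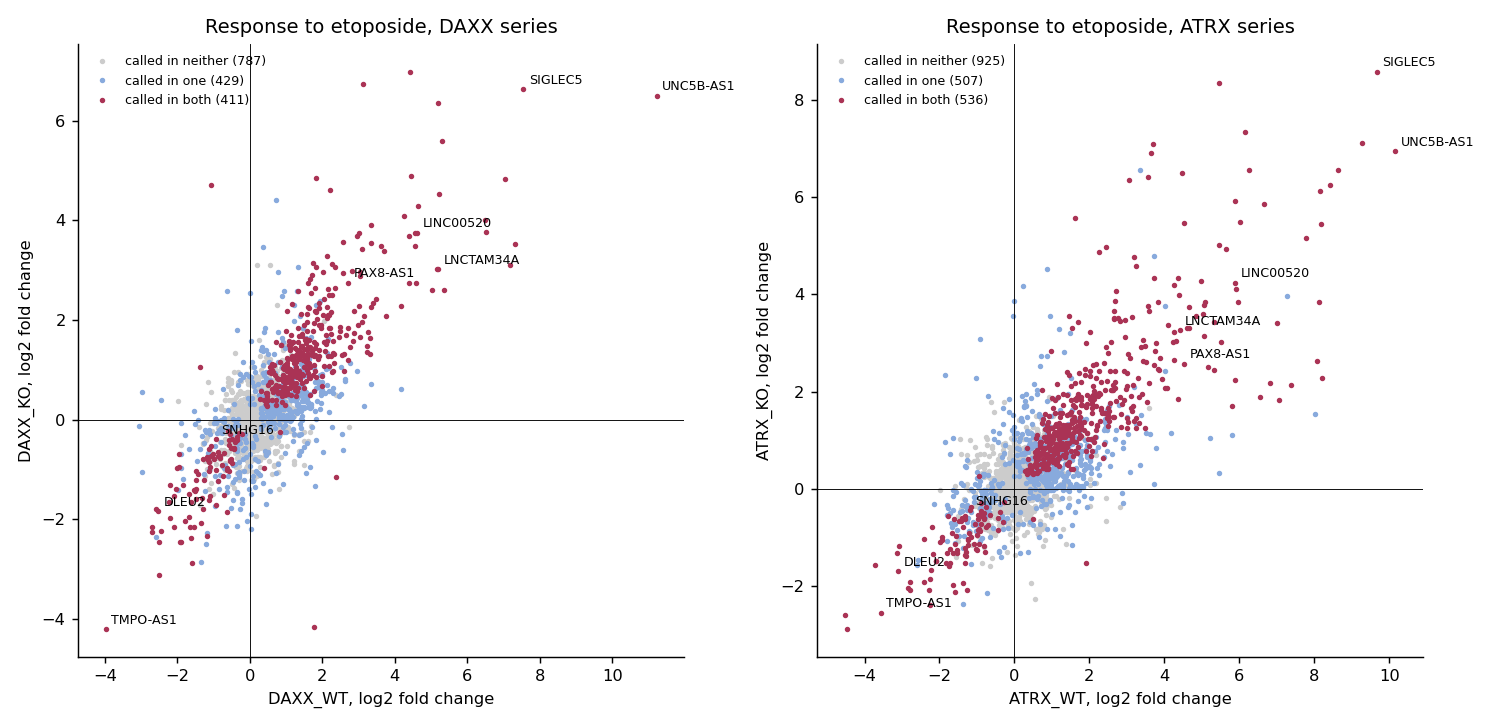
Log2 change with etoposide in WT (x) and in the knockout (y) of each series, 1 point per tested member, coloured by whether the change passed in both, one or neither line. In the DAXX series 411 members passed in both lines, 429 in one and 787 in neither; in the ATRX series 536, 507 and 925.

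Whether a response differed between knockout and WT was tested by the interaction term. In the DAXX series 24 members had a higher and 91 a lower response in the knockout (1.48 and 5.59%), against 8.38 and 5.79% of all genes. In the ATRX series 56 were higher and 96 lower (2.85 and 4.88%), against 8.36 and 7.64%. Called protein-coding genes also leaned lower at low level. Under 1 CPM, from 1 to 5 CPM and from 5 CPM, 23.5, 33.0 and 63.8% of them were higher in the DAXX series. In the ATRX series these were 39.4, 34.5 and 55.7%. For called members they were 12.5, 14.3 and 25.0% in the DAXX and 46.2, 22.2 and 42.6% in the ATRX series. Of the members tested in both series 9 were higher in both, 23 were lower in both and 1 was opposite, without a count over all genes. These counts move with single libraries. Without 1 DAXX_WT etoposide library (replicate 1) the 91 became 58, and without 1 DAXX_KO control library (replicate 2) the 24 became 13. In the ATRX series the 56 became 31 to 36 without ATRX_WT control replicate 1, ATRX_KO etoposide replicate 2 or ATRX_KO control replicate 1, and the 96 became 60 or 61 without ATRX_WT etoposide replicate 2 or ATRX_KO etoposide replicate 2.

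LNCTAM34A (chr1:9242063-9256343, plus strand), antisense to the miR-34a locus, a known p53 target, had the lowest DAXX interaction of those named. It read 1.09, 0.805 and 0.72 CPM in DAXX_WT control, 31.3, 35.6 and 31.8 in DAXX_WT etoposide, 3.49, 2.77 and 2.4 in DAXX_KO control and 24.2, 22.3 and 23.8 in DAXX_KO etoposide. In the ATRX series it read 2.02, 1.61 and 1.69 and 40.5, 38 and 35 CPM in WT and 2.09, 3.09 and 1.67 and 22.4, 24 and 19.2 CPM in KO. Both treated knockouts lay below their treated WT in every library, and untreated DAXX_KO lay above untreated DAXX_WT. The interaction was −2.18 in the DAXX series (edgeR adjusted p = 4.46e-05) and −1.14 in the ATRX series (edgeR adjusted p = 0.0105), where it became −0.86 and no longer passed without ATRX_KO control replicate 2.

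The other 4 members named for a lower response in both knockouts did not pass the test for a response in DAXX_KO (edgeR adjusted p from 0.111 to 0.232), whereas AJUBA-DT and PCAT19 rose in ATRX_KO. KCNJ5-AS1, across from a potassium channel gene, read 4.24, 3.82 and 3.6 CPM in DAXX_KO control and 5.1, 4.44 and 5.03 CPM in etoposide, whereas DAXX_WT went from 2.28, 1.95 and 2.28 to 7.76, 6.65 and 6.47 (interaction −1.36, edgeR adjusted p = 0.00508; in the ATRX series −1.59, edgeR adjusted p = 0.00273). AJUBA-DT, beside the LIM-protein gene AJUBA, averaged 1.14 ± 0.104 and 5.67 ± 2.24 CPM in DAXX_WT and 1.96 ± 0.513 and 3.06 ± 0.0892 CPM in DAXX_KO. C1QTNF1-AS1 averaged 0.593 ± 0.247 and 3.29 ± 1.18 CPM in DAXX_WT and 2.25 ± 0.264 and 3.14 ± 0.335 CPM in DAXX_KO. PCAT19, a lncRNA of a prostate cancer risk locus, averaged 1.67 ± 0.296 and 6.86 ± 1.83 CPM in ATRX_WT and 2.2 ± 0.515 and 3.52 ± 0.116 CPM in ATRX_KO. The interactions of AJUBA-DT, C1QTNF1-AS1 and PCAT19 each lost the call in either series when some single libraries were left out.

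Members named for a positive interaction in both series fell less in the knockouts, in the series given here for each. The other members with such an interaction are not described. SNHG16 changed by log2 −0.94 ± 0.06 in DAXX_WT and −0.39 ± 0.06 in DAXX_KO, where it started lower, and DLEU2 changed by log2 −3.10 ± 0.13 in ATRX_WT and −1.69 ± 0.12 in ATRX_KO. SERTAD4-AS1, across from SERTAD4, read 32.6, 26.1 and 34.2 CPM in DAXX_WT control and 7.76, 9.02 and 6.87 in etoposide, and 9.73, 8.69 and 5.77 and 3.89, 4.86 and 3.57 in DAXX_KO. TTC28-AS1 averaged 21.1 ± 0.853 and 9.66 ± 1.24 CPM in DAXX_WT and 7.27 ± 0.0515 and 6.36 ± 1.29 CPM in DAXX_KO, so the knockout control already lay under the treated WT. ARHGAP27P1-BPTFP1-KPNA2P3, a readthrough of pseudogenes whose reads may belong to their parent genes, averaged 62.4 ± 5.69 and 16.2 ± 0.708 CPM in ATRX_WT and 35.1 ± 8.53 and 17 ± 2.28 CPM in ATRX_KO. The interaction of SERTAD4-AS1 lost its call without any of 7 ATRX libraries or either of 2 DAXX libraries, at 0.75 to 0.92.

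In untreated cells, 355 members were higher and 183 lower in DAXX_KO than DAXX_WT (21.8 and 11.2% of 1627), against 26.7 and 26.6% of all genes. Of the called members 66.0% were higher, and 78.8% with library totals alone, which moves the median of all genes by 0.19 log2 and leaves 121 members lower. In ATRX_KO, 282 were higher and 233 lower (14.3 and 11.8% of 1968), against 20.8 and 21.0%. The member medians were log2 0.15 for DAXX_KO and 0.10 for ATRX_KO, beside 0.02 over all genes in both. Protein-coding genes of low level also leaned higher in DAXX_KO. Of those called under 1 CPM, from 1 to 5 CPM and from 5 CPM, 80.9, 64.6 and 46.4% were higher. For called members these were 85.2, 70.3 and 56.3%, and the classes were not compared by a test. Of 1561 members tested in both series, 103 were higher in both (32.4% of those higher in DAXX_KO and 43.1% in ATRX_KO), 93 were lower in both and 45 were opposite. This overlap was not counted over all genes.

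**Figure D5:**
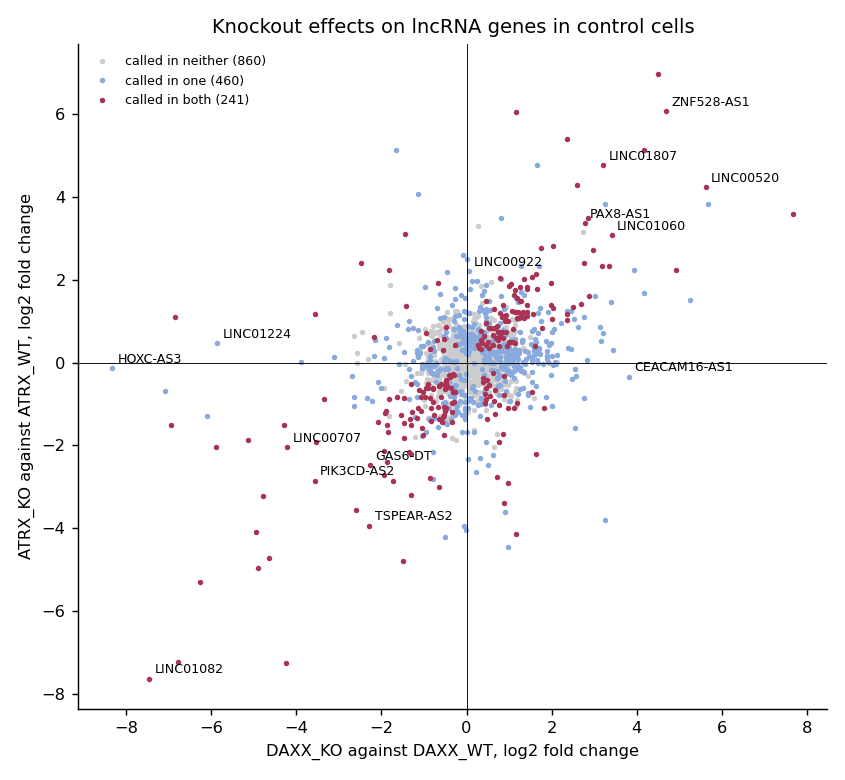
Log2 difference between knockout and WT in control cells, DAXX_KO (x) against ATRX_KO (y), 1 point per member tested in both series. Of 1561 members, 241 passed in both series, 460 in one and 860 in neither.

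ZNF528-AS1 (chr19:52892089-52901044, minus strand), which starts beside the KRAB zinc finger gene ZNF528, was the strongest shared rise. It read 0.198, 0.115 and 0.48 CPM in DAXX_WT control and 6.86, 6.06 and 8.17 in DAXX_KO control, and 0.311, 0.17 and 0.0846 and 13.4, 16 and 11.2 in the ATRX series. No WT library of either series overlapped a KO library (log2 change 6.06 ± 0.28, edgeR adjusted p = 4.09e-11 in ATRX_KO), and treated knockouts were higher still, at 12.9, 14.9 and 11.6 and 27.3, 27.7 and 28.1 CPM. ZNF528 rose with it, by log2 4.02 (edgeR adjusted p = 8.08e-05) in DAXX_KO and 5.33 (edgeR adjusted p = 3.45e-08) in ATRX_KO.

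LINC00520 was higher with knockout and higher with etoposide. Its libraries read 0.297, 0.115 and 0 CPM in DAXX_WT control, 3.76, 4.51 and 3.5 in DAXX_WT etoposide, 8.73, 5.79 and 9.13 in DAXX_KO control and 104, 108 and 107 in DAXX_KO etoposide. In the ATRX series it read 0.155, 0 and 0.254 CPM in WT control, 7.94, 10.1 and 8.12 in WT etoposide, 2.52, 3.51 and 2.3 in KO control and 45.9, 56.2 and 56 in KO etoposide. Untreated WT was lowest and treated KO highest in both series, whereas the groups between them stood in opposite order, with untreated DAXX_KO above treated DAXX_WT and untreated ATRX_KO below treated ATRX_WT. In control it was 53.9-fold higher (interval 20.7 to 199.7) in DAXX_KO and 20.2-fold higher (interval 8.38 to 63.65) in ATRX_KO, and in etoposide it was higher in DAXX_KO by log2 4.75 ± 0.15 (edgeR adjusted p = 1.11e-14) and in ATRX_KO by 2.60 ± 0.16 (edgeR adjusted p = 1.97e-09). PAX8-AS1, across from the thyroid and kidney transcription factor gene PAX8, had a like pattern, from 0.891, 0.69 and 1.08 CPM in DAXX_WT control to 39.3, 43.1 and 41.2 in DAXX_KO etoposide, with 4.76, 7.12 and 5.66 and 5.99, 5.93 and 6.49 CPM in the groups between. PAX8 was higher in the untreated knockouts by log2 1.80 (edgeR adjusted p = 8.85e-09) and 1.34 (edgeR adjusted p = 1.34e-07). LINC01060 averaged 0.953 ± 0.228 CPM in DAXX_WT control and 10.3 ± 0.118 in DAXX_KO control, and 1.12 ± 0.459 and 9.48 ± 1.02 in the ATRX series (log2 change 3.07 ± 0.28, edgeR adjusted p = 1.95e-07). LINC01807 was at most 1 count per WT control library and averaged 0.471 ± 0.391 CPM in DAXX_KO and 1.01 ± 0.581 in ATRX_KO, 12.5-fold higher (interval 1.81 to 537) and 37.4-fold higher (interval 6.31 to 1517). Without DAXX_KO control replicate 2, which held the most counts, the DAXX_KO call was lost (log2 change 2.34).

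Among members lower in both knockouts, LINC01082 (chr16:86229560-86233543, plus strand) had 0 counts in all 6 untreated knockout libraries. Its WT control libraries read 3.07, 2.18 and 2.4 CPM in the DAXX series and 2.33, 1.87 and 2.03 CPM in the ATRX series, so it was at least 6.77-fold lower in DAXX_KO and at least 8.31-fold lower in ATRX_KO (edgeR adjusted p = 1.67e-06 and 1.1e-05). LINC00707 (chr10:6821511-6884868, plus strand) lies next to LINP1 on chromosome 10. It read 9.9, 8.28 and 8.04 CPM in DAXX_WT control and 0.125, 0.658 and 0.601 in DAXX_KO control, and in etoposide it read 21.5, 22.1 and 21.6 in DAXX_WT and 0.972, 0.93 and 0.223 in DAXX_KO. ATRX_WT rose from 6.68, 7.29 and 6.68 to 41, 36.1 and 42.1 CPM and ATRX_KO from 0.869, 2.01 and 2.06 to 5.15, 3.53 and 4.59 CPM, with no overlap of WT and KO in either state. The 30 protein-coding genes on either side had median log2 changes of 0.55 in DAXX_KO and 0.04 in ATRX_KO control.

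PIK3CD-AS2, across from a PI3-kinase gene, averaged 2.14 ± 0.787 CPM in DAXX_WT control and was at or under 2 counts in every untreated knockout library, 12.8-fold lower (interval 4.73 to 48.5) in DAXX_KO and 7.58-fold lower (interval 3.23 to 21.72) in ATRX_KO. TSPEAR-AS2 averaged 1.47 ± 0.105 and 0.283 ± 0.302 CPM in DAXX_WT and DAXX_KO control (log2 change −2.28 ± 0.56, edgeR adjusted p = 0.00203). GAS6-DT, beside the gene of the receptor ligand GAS6, read 5.74, 5.29 and 3.6 CPM in DAXX_WT control, 0.374, 1.32 and 1.32 in DAXX_KO, 5.67, 5.77 and 4.4 in ATRX_WT and 0, 1.25 and 1.51 in ATRX_KO. GAS6 was lower in ATRX_KO, by log2 −1.38 (edgeR adjusted p = 5.53e-05), and did not pass in DAXX_KO, at −0.37 (edgeR adjusted p = 0.144).

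Under etoposide the knockout effects were nearly balanced. In treated DAXX_KO 268 members were higher and 275 lower than in DAXX_WT, against 27.9 and 25.2% of all genes, and in ATRX_KO 263 were higher and 300 lower, against 23.0 and 22.9%. In both series 88 were higher, 138 lower and 39 opposite, an overlap that was not counted over all genes. PTPRG-AS1, across from the receptor phosphatase gene PTPRG, read 0.376, 0.356 and 0.539 CPM in DAXX_WT etoposide and 3.52, 4.44 and 2.01 in DAXX_KO etoposide (log2 change 2.94 ± 0.44, edgeR adjusted p = 1.32e-05). SUGCT-AS1 read 0.626, 0.356 and 0.404 and 2.55, 4.75 and 2.79 CPM in these groups and 0.739, 0.477 and 1.1 and 5.42, 6.13 and 5.49 CPM in ATRX_WT and ATRX_KO etoposide. TNFRSF10A-DT (ENSG00000246582), beside the TRAIL receptor gene TNFRSF10A, was 2.13, 2.73 and 2.29 CPM in DAXX_WT etoposide and 0.243, 0.31 and 0.223 in DAXX_KO, 9.18-fold lower (interval 4.18 to 23.85), and it averaged 2.74 ± 0.917 and 0.514 ± 0.292 CPM in ATRX_WT and ATRX_KO (log2 change −2.42 ± 0.51, edgeR adjusted p = 0.0012).

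The knockouts also differed from each other. The difference of the knockout effects in control, DAXX minus ATRX, passed upward in 219 and downward in 137 of 2089 tested members (10.5 and 6.56%), against 17.0 and 17.2% of all genes. CEACAM16-AS1 read 1.29, 0.46 and 0.36 CPM in DAXX_WT, 8.73, 12.6 and 10.1 in DAXX_KO, 1.01, 1.27 and 1.1 in ATRX_WT and 0.956, 0.836 and 0.873 in ATRX_KO control (difference 4.16, edgeR adjusted p = 3.25e-06). LINC00922, near the cadherin gene CDH11, was higher in ATRX_KO, at 17.1, 21.7 and 21.9 CPM against 4.58, 3.9 and 4.74 in ATRX_WT, 5.86, 6.72 and 4.56 in DAXX_KO and 5.94, 5.52 and 5.04 in DAXX_WT (difference −2.15, edgeR adjusted p = 1.98e-07). WDFY3-AS2 averaged 3.41 ± 0.785 CPM in ATRX_WT and 0.891 ± 0.133 in ATRX_KO, and 3.57 ± 0.968 and 4.86 ± 0.468 in the DAXX series (difference 2.38, edgeR adjusted p = 2.18e-05). LINC00926 averaged 1.66 ± 0.118 and 11.8 ± 1.19 CPM in the DAXX series and 2.76 ± 0.422 and 2.9 ± 0.775 in the ATRX series (difference 2.76, edgeR adjusted p = 3.12e-06). For TNFRSF10A-DT and LINC03002 the ATRX_WT control libraries held 0 counts and DAXX_WT control held 0.297, 0.345 and 0.24 CPM and 0.297, 0.115 and 0.48 CPM, so the WT controls of the series themselves differed (edgeR adjusted p = 0.0121 and 0.00593).

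At the HOXC genes of chromosome 12, which pattern the body axis, some members were lower in DAXX_KO and not in ATRX_KO. HOXC-AS3 (chr12:54375293-54379303, minus strand) read 4.65, 5.06 and 4.32 CPM in DAXX_WT, 0 in all 3 libraries of DAXX_KO, 4.89, 3.48 and 4.65 in ATRX_WT and 5.65, 3.51 and 2.7 in ATRX_KO control, at least 12.4-fold lower in DAXX_KO. HOTAIR (chr12:54356092-54368740, minus strand), which lies between HOXC11 and HOXC12 and is known for its link to Polycomb complexes, averaged 3.72 ± 0.865, 0.965 ± 0.218, 4.49 ± 1.26 and 4.8 ± 0.611 CPM in the same groups (log2 change −2.03 ± 0.39, edgeR adjusted p = 0.000159 for the difference between knockouts). FAM242C (chr12:54478916-54519776, minus strand) read 1.48, 2.53 and 1.2 CPM in DAXX_WT and 0.374, 0.527 and 0.24 in DAXX_KO. HOXC-AS1, in the same cluster, read 0.495, 0.345 and 1.2 CPM in DAXX_WT control and 1.12, 0.132 and 0.601 in DAXX_KO control and did not pass (log2 change −0.09 ± 0.63, edgeR adjusted p = 0.915). The 30 protein-coding genes on either side of HOTAIR had a median log2 change of 0.19 in DAXX_KO control. HOTAIRM1, at the HOXA cluster, moved the other way and did so in both knockouts, from 31.3, 29.1 and 32 CPM to 174, 175 and 177 in the DAXX series (log2 change 2.51 ± 0.07, edgeR adjusted p = 1.97e-15) and from 29.2, 35.2 and 32.3 to 85, 82.8 and 76.9 in the ATRX series (log2 change 1.34 ± 0.09, edgeR adjusted p = 4.18e-09).

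Divergent and antisense members were set beside the gene they are named after. Of 169 -DT pairs tested in both series, both partners passed with etoposide in WT of both series in 44, of which 19 rose together, 6 fell together, 17 had a member that rose and a partner that fell, 1 was the reverse, and the remainder had directions that differed between the series. Of 277 -AS pairs, 70 passed, with 27, 11, 30 and 2 in the same order. In DAXX_WT 33.6% of tested members were higher and 8.79% lower, against 29.7 and 34.9% of protein-coding genes. In ATRX_WT these were 36.0 and 9.71%, against 31.5 and 34.7%. Pairs of unrelated genes were not counted, so the directions of the pairs are not read as a trait of neighbours. ANKRD17-DT and ANKRD17 moved apart. The member rose in DAXX_WT from 0, 0.345 and 0.36 to 2.13, 2.37 and 2.16 CPM and in ATRX_WT by log2 2.01, and ANKRD17 changed by −0.39 (edgeR adjusted p = 0.00123) and −0.22 (edgeR adjusted p = 0.0234). SERTAD4-AS1 and SERTAD4 fell together in DAXX_WT, by −1.97 for the member and −3.49 (edgeR adjusted p = 3.48e-13) for SERTAD4, and TNFRSF10A rose with TNFRSF10A-DT, by 4.06 (edgeR adjusted p = 2.11e-09) and 4.63 (edgeR adjusted p = 1.95e-09). In untreated DAXX_KO the member passed in 109 of 293 tested -AS pairs, and of these 35 rose together, 19 fell together, 18 moved apart and 37 had a partner that did not pass, where 26.7% of all genes tested were higher and 26.6% lower.

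The snoRNA hosts, a list of 33 genes of which 29 were members and 28 were tested, rose with etoposide more often than they fell. In DAXX_WT 16 were higher and 5 lower (all genes 29.6 and 30.6%), and in ATRX_WT 16 were higher and 6 lower (31.7 and 29.8%), with list medians of log2 0.69 and 0.61 beside 0.02 and 0.07 over all genes. SNHG32 read 50.2, 53.7 and 57.6 CPM in DAXX_WT control and 267, 283 and 239 in etoposide, and SNHG12 read 49.1, 48.7 and 54.2 and 204, 230.4 and 194. In DAXX_KO they reached 156, 172 and 165 and 67.1, 75.7 and 75.7 CPM with etoposide, below every treated WT library. Against WT in etoposide, 17 of the 28 hosts were lower and 3 higher in DAXX_KO (all genes 25.2 and 27.9%), and 12 were lower and 5 higher in ATRX_KO (22.9 and 23.0%). SNHG7 rose by log2 1.43 ± 0.10 in DAXX_WT (edgeR adjusted p = 1.28e-10) but read 163, 176 and 156 CPM in DAXX_KO control and 174, 204 and 141 in DAXX_KO etoposide, which overlap (interaction −1.36 ± 0.13, edgeR adjusted p = 1.81e-06). In untreated cells 9 hosts were higher and 12 lower in DAXX_KO (all genes 26.7 and 26.6%), with a median of −0.14 that turned to 0.04 with library totals alone, and 8 were higher and 10 lower in ATRX_KO (20.8 and 21.0%).

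Of 42 microRNA host genes 25 were members and 19 or 20 were tested. In WT 5 of 19 rose and 6 fell in the DAXX series, against 29.6 and 30.6% of all genes, and 4 of 20 rose and 7 fell in the ATRX series, against 31.7 and 29.8%. MIR100HG, host of miR-100 and let-7a-2, read 54.4, 53.5 and 51.6 CPM in DAXX_WT control and 14.4, 15.9 and 19.9 in etoposide, and 64.3, 57.9 and 61.6 and 23.2, 18.6 and 21.8 in ATRX_WT. MIR4435-2HG read 150.0, 146 and 149 CPM in DAXX_WT control and 189.7, 193 and 197 in DAXX_KO control but 163, 168 and 154 and 129, 111 and 111 in ATRX_WT and ATRX_KO (difference of the knockout effects log2 change 0.85 ± 0.10, edgeR adjusted p = 8.3e-08). It is a near copy of CYTOR, so the split of reads between them is uncertain. MIR22HG, whose start region holds a p53 element printed above, averaged 30.8 ± 0.994 and 38 ± 2.31 CPM in DAXX_WT (log2 change 0.30 ± 0.11, edgeR adjusted p = 0.0191), a call that was lost at 0.27 to 0.28 without DAXX_WT control replicate 3 or DAXX_WT etoposide replicate 1 or 3. In ATRX_WT it rose by log2 0.54 ± 0.10 (edgeR adjusted p = 0.00021). In DAXX_KO 10 of 19 hosts fell and 1 rose with etoposide, against 27.8% lower and 26.8% higher of all genes.

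The list of genes linked to DNA damage, p53 and the cell cycle held 31 names, 12 of them members. In DAXX_WT 4 of 11 rose and 1 fell, against 29.6 and 30.6% of all genes, and in ATRX_WT 5 of 12 rose and 1 fell, against 31.7 and 29.8%, so the rises were not far from the share of all genes. In ATRX_KO 8 of 12 rose with etoposide and 0 fell, against 24.3 and 25.2% of all genes, and in DAXX_KO 5 of 11 rose and 0 fell, against 26.8 and 27.8%, at a median of 0.05 that turned to −0.06 with library totals alone. TERC, the telomerase RNA, read 5.05, 7.24 and 5.52 CPM in DAXX_WT control, 7.38, 4.51 and 6.2 in DAXX_WT etoposide, 7.73, 8.16 and 13.9 in DAXX_KO control and 17.5, 18.5 and 18.4 in DAXX_KO etoposide. In the ATRX series it read 4.74, 8.48 and 10.7 CPM in WT control, 5.08, 8.3 and 6.31 in WT etoposide, 8.86, 4.85 and 5.64 in KO control and 14, 9.01 and 9.55 in KO etoposide. It was higher in treated DAXX_KO than in every other library, and rose there with etoposide (log2 change 0.86 ± 0.20, edgeR adjusted p = 0.00108), but the mature RNA has no poly(A) tail and these reads sample only its polyadenylated forms. CASC15, near SOX4, rose in all 4 lines (log2 1.54 and 0.94 in WT, 1.17 and 1.02 in the knockouts, edgeR adjusted p at most 0.00108).

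Of 39 regulators and cancer-linked genes 32 were members and 28 or 27 were tested. In DAXX_WT 7 of 28 rose and 9 fell with etoposide, near the 29.6 and 30.6% of all genes, and in ATRX_WT 10 of 27 rose and 8 fell, near the 31.7 and 29.8% of all genes. In untreated cells 8 were higher and 13 lower in DAXX_KO (all genes 26.7 and 26.6%), at a median of −0.12 that turned to 0.06 with library totals alone, and 8 were higher and 10 lower in ATRX_KO (20.8 and 21.0%). UCA1, an RNA first described in bladder cancer, read 13, 13.7 and 13.4 CPM in DAXX_WT control and 3.74, 3.03 and 2.04 in DAXX_KO control but 12.7, 13.8 and 15.7 in ATRX_WT and 26.3, 22.2 and 16 in ATRX_KO (difference of the knockout effects log2 change −2.79 ± 0.23, edgeR adjusted p = 5.97e-10). Etoposide raised it in all 4 lines. CYTOR averaged 207 ± 4.12 and 126 ± 1.41 CPM in DAXX_WT, and CRNDE, near IRX5, averaged 41.6 ± 1.69 and 31.6 ± 4.43 CPM.

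The smaller lists had at most 10 tested members each. Of 18 HOX cluster genes 10 were members, and in untreated cells 2 of 8 were higher and 2 lower in DAXX_KO, against 26.7 and 26.6% of all genes, at a median of −0.23 that turned to 0.03 when all 24 libraries were fitted together, and 2 of 10 were higher and 1 lower in ATRX_KO, against 20.8 and 21.0% of all genes. In etoposide 2 of 8 were higher and 4 lower in DAXX_KO, against 27.9 and 25.2%. Of 24 genes of imprinted loci 5 were members and 4 were tested. In untreated DAXX_KO 1 of 4 was higher and 2 were lower, against 26.7 and 26.6% of all genes. In untreated ATRX_KO 1 of 4 was higher and 0 were lower, against 20.8 and 21.0%. KCNQ1OT1, which silences its neighbours on the paternal chromosome, averaged 119 ± 8.68 and 149.9 ± 12.4 CPM in the DAXX controls and 103 ± 3.5 and 149 ± 15.7 CPM in the ATRX controls, higher in both knockouts (log2 change 0.33 ± 0.08, edgeR adjusted p = 0.00233 and log2 change 0.54 ± 0.10, edgeR adjusted p = 0.000212). SNHG14, the long host of the Prader-Willi snoRNAs, read 23.8, 23 and 21.7 CPM in DAXX_WT and 14.1, 12.2 and 11.2 in DAXX_KO control (log2 change −0.87 ± 0.12, edgeR adjusted p = 4.71e-06), while ATRX_WT and ATRX_KO overlapped. Of 18 immune and interferon-linked genes 10 were members and 8 or 9 were tested. With etoposide 3 of 8 rose and 2 fell in DAXX_WT, against 29.6 and 30.6% of all genes. In ATRX_WT 3 of 9 rose and 3 fell, against 31.7 and 29.8%. Untreated DAXX_KO had 2 of 8 higher and 0 lower, against 26.7 and 26.6%, and untreated ATRX_KO 1 of 9 higher and 1 lower, against 20.8 and 21.0%. PSMB8-AS1, at the immunoproteasome genes, averaged 2.21 ± 0.12 and 5.41 ± 0.628 CPM in the DAXX controls. It rose with etoposide in all 4 lines (edgeR adjusted p at most 0.00584), whereas LUCAT1 fell in all 4.

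By position, the share of tested members that rose with etoposide in WT was 39.6 and 39.3% (DAXX and ATRX series) for those antisense to a protein-coding gene, 31.0 and 38.2% for intergenic members, 33.3 and 30.8% for divergent ones and 22.2 and 25.2% for those on the same strand. Of all genes tested, 29.6 and 31.7% rose, above the same-strand shares in both series and the divergent share in ATRX_WT. The share that fell ran from 5.33% (divergent) to 13.6% (same strand) in DAXX_WT, against 30.6% of all genes. In ATRX_WT it ran from 8.14% (intergenic) to 14.1% (same strand), against 29.8%. Same-strand members thus rose least often and fell most often. The lean toward higher calls was present at every level. Of called members under 1 CPM, from 1 to 5 CPM and from 5 CPM, 92.1, 81.5 and 74.3% were higher in DAXX_WT and 87.7, 78.4 and 73.9% in ATRX_WT. Protein-coding genes of the same bins gave 86.5, 70.1 and 42.5% and 93.1, 70.2 and 42.4%, so the classes differed most among genes of at least 5 CPM, a difference given here without a test.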

How the data were processed

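Polyadenylated RNA of 24 libraries in 8 groups of 3 was read from the 3′ end (QuantSeq, 75-base single reads). The authors aligned reads to hg19 with STAR and estimated counts per Ensembl GRCh37 gene with RSEM, and the deposited counts are whole numbers with no normalisation. The strand setting of the counting is not given in the sources used here. Reads of overlapping genes can therefore be assigned to either gene. Genes were matched to GENCODE release 44 lifted to GRCh37 by identifier (55501 of 57736 matched, holding 98.78% of counts).

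Counts were tested with edgeR 4.0.16 in R 4.3.3 by quasi-likelihood F tests. Each series was fitted alone with its 4 groups (12 libraries, TMM factors, genes kept by filterByExpr at min.count 10 and min.total.count 15), with Benjamini-Hochberg adjustment over all genes tested and a false discovery rate of 5%. The difference between knockouts came from all 24 libraries with 8 groups. Errors of log2 changes are SE, other errors are SD with n = 3. Alternatives were RLE size factors, library totals alone, other filters on low counts, DESeq2 1.42.0, the replicate block, other sets of libraries, local centring and leaving out each library. The share with TMM-scaled totals was chosen after seeing the data. The edgeR test of knockout against WT in control cells was first tried on simulated data for each series. The other comparisons and the alternatives were not tried on simulated data. Replicates differed by more than sampling noise (chi-square per degree of freedom 2.16 to 17.11 over 24 pairs), so none was counted as a repeat.

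Named genes were the 8 highest by mean CPM and, for each kind of comparison, the 5 highest and 5 lowest members with a symbol and at least 2 CPM in a group of each series, called in the same direction in both series, ranked by the smaller absolute log2 change. For knockout in control, the 4 with the largest change in each direction and series whose difference between knockouts passed were added. Members of the gene lists, the -DT and -AS partners and the detection switches could also be named. The members, lists and rules were chosen with earlier results of these data known. The start region of 1 member is not reported here.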

Additional observations from a re-analysis of the deposited data

Results flagged for a closer look

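The etoposide effect differed between knockout and WT in both series for 10 named members, by the edgeR interaction term. The knockout response was higher, on the log2 scale, by 1.01 in DAXX_KO and 0.9 in ATRX_KO for SERTAD4-AS1, by 1.04 and 0.89 for ARHGAP27P1-BPTFP1-KPNA2P3, by 0.93 and 0.77 for TTC28-AS1, by 0.68 and 1.41 for DLEU2 and by 0.55 and 0.75 for SNHG16. It was lower for C1QTNF1-AS1 (−1.97 and −2.06), AJUBA-DT (−1.67 and −1.97), KCNJ5-AS1 (−1.36 and −1.59), PCAT19 (−1.61 and −1.35) and LNCTAM34A (−2.18 and −1.14). Of these, SERTAD4-AS1, C1QTNF1-AS1, AJUBA-DT, PCAT19 and LNCTAM34A lost the call in at least 1 series when a single library was left out.

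The knockout effect in control cells differed between DAXX_KO and ATRX_KO for 16 named members. The DAXX_KO effect was the higher for CEACAM16-AS1 (4.16), LINC00926 (2.76), LINC01252 (1.79), ANKRD17-DT (4.14), CLDN14-AS1 (2.0), TICAM2-AS1 (2.98), WDFY3-AS2 (2.38) and LINC01910 (1.57). The ATRX_KO effect was the higher for HOXC-AS3 (−8.46), LINC01224 (−6.39), FAM242C (−2.7), HOTAIR (−2.03), LINC03002 (−6.59), TNFRSF10A-DT (−4.99), DIRC3 (−2.64) and LINC00922 (−2.15). The sizes for HOXC-AS3, LINC01224, LINC03002, TNFRSF10A-DT, ANKRD17-DT, DIRC3, CLDN14-AS1 and TICAM2-AS1 rest on groups at or under 3 counts per library, depend on the prior count of the fit and are no bounds.

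Outside the members, 9624 autosomal lncRNA genes had under 50 summed counts. Of these, 1 (DAXX series) and 18 (ATRX series) held more than 3 counts in every WT etoposide library and in no WT control library. The reverse pattern was seen for 2 genes in each series. These patterns were not counted over all genes under 50 counts. The ATRX series was sequenced more deeply, so the limit of 3 counts is not alike in the 2 series.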

How the results depend on the processing

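Of 475 called pairs of a named member and a comparison, none reversed in 6731 refits, 360 refits lost the call, and 83 pairs lost it in at least 1 setting, 80 of them when a single library was left out. Centring on neighbouring protein-coding genes turned the sign of SNHG29 in treated ATRX_KO (0.3) and DAXX_KO (0.07), L3MBTL2-AS1 in treated DAXX_KO (0.04), SNHG14 with etoposide in DAXX_KO (0.16), and SNHG7 (−0.37), CRNDE (0.05) and SNHG25 (0.27) in untreated DAXX_KO. The causes were not tested. Of 476 alternative counts and shares, 404 stayed within 1.5 times the reported count or 1 SD of the share.

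With at least 10 counts in every library, fewer members were tested, and those higher and lower were 193 and 111 for DAXX_KO control, 125 and 166 for DAXX_KO etoposide, 305 and 89 for the DAXX_WT response, 208 and 98 for the DAXX_KO response, 179 and 136 for ATRX_KO control, 158 and 162 for ATRX_KO etoposide, 383 and 112 for the ATRX_WT response and 312 and 75 for the ATRX_KO response, with 15 higher in the DAXX interaction. Members that overlap no protein-coding gene gave 158 and 85, 117 and 123, 217 and 62, 151 and 86, 119 and 105, 104 and 137, 306 and 73 and 242 and 42 in the same order, and 11 and 43 in the DAXX and 25 and 43 in the ATRX interaction. Library totals alone left 121 members lower in DAXX_KO control.

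At least 1 count per library gave 2326 detected members in DAXX_WT control. At least 10 counts gave 967 there, 1107 in DAXX_WT etoposide, 980 in DAXX_KO control and 1135 in DAXX_KO etoposide. In the group order DAXX_WT, DAXX_KO, ATRX_WT, ATRX_KO with control before etoposide, the share of counts was 1.51, 2.51, 1.67, 2.03, 1.53, 2.53, 1.44 and 2.1% without BCYRN1 and mitochondrial genes and 0.953, 1.22, 1.15, 1.23, 0.989, 1.32, 1.04 and 1.36% without the 10 most abundant members. With TMM-scaled totals, chosen after seeing the data, it was 1.49 and 2.31% in DAXX_WT, 1.46% in DAXX_KO control, 1.52 and 2.32% in ATRX_WT and 1.9% in ATRX_KO etoposide.

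Leaving out 1 library gave ranges of 310 to 330 higher and 157 to 175 lower for DAXX_KO control, 236 to 260 and 238 to 274 for DAXX_KO etoposide, 503 to 529 and 127 to 138 for the DAXX_WT response, 342 to 376 and 150 to 172 for the DAXX_KO response, 13 to 26 and 58 to 88 for the DAXX interaction, 238 to 282 and 193 to 220 for ATRX_KO control, 217 to 254 and 242 to 291 for ATRX_KO etoposide, 650 to 684 and 167 to 180 for the ATRX_WT response, 488 to 527 and 99 to 114 for the ATRX_KO response and 31 to 60 and 60 to 100 for the ATRX interaction. Detected members ranged, in the same group order, over 1618 to 1677, 1797 to 1854, 1657 to 1665, 1849 to 1890, 1857 to 1893, 2045 to 2075, 1865 to 1905 and 2194 to 2344, and shares over 1.42 to 1.43, 2.2 to 2.22, 1.58 to 1.6, 1.83 to 1.85, 1.46 to 1.47, 2.27 to 2.29, 1.38 to 1.41 and 1.99 to 2.01%.

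Replicate numbers did not pair the libraries (correlations of deviations from −0.216 to 0.049 over 36 comparisons). With the replicate block, 514 members were called in DAXX_KO control and 471 in ATRX_KO control, 674 and 856 in the DAXX_WT and ATRX_WT responses and 94 and 128 in the interactions, and no count of calls moved by 1.5 times. DESeq2 called 83 members in the DAXX and 145 in the ATRX interaction. Depth limits members near 3 counts per library, about 0.216 to 0.404 CPM, where presence and absence cannot be told apart by these counts.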
